A study of Rattus norvegicus with 3 samples.

Results

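A stretch of rat chromosome 1 beside the gene Rras2 held a dense cluster of HILS1 peaks, many of them in satellite DNA. It was taken as every peak of the deposited list that starts on chromosome 1 from 186.0 Mb to below 188.0 Mb of the genome build rn5, whatever its annotation, which gave 353 peaks of 32731. HILS1 is a linker histone made in spermatids. It was immunoprecipitated from testis nuclei of rats aged 50 to 60 days, from cells labelled as elongating/condensing spermatids, in 2 HILS1 ChIP replicates, with 1 Input library as the control for peak calling. All 3 libraries came from the same kind of nuclei, with no other treatment or genotype named. The list holds the regions found in both replicates, with 1 value of each kind per peak, so no spread between replicates can be given. The read depth behind each peak is unknown.

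Satellite DNA is made of short units repeated head to tail over long distances, and it is best known from centromeres and from the heterochromatin around them. Such DNA is hard to assemble, and copies of a family can lie far from any centromere. Linker histones sit where DNA enters and leaves the nucleosome and help to compact chromatin, and HILS1 appears when spermatids replace most of their histones, first by transition proteins and then by protamines. Rras2 encodes a small GTPase of the R-Ras family, a relative of the Ras proteins that passes on signals for growth.

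The peaks were selected on their HILS1 signal over Input, and the region was chosen by how many of them, and of which fold and repeat, lie there. Counts, folds and lengths are therefore given as a description, without tests. The intervals that follow cover counting error only (95% Wilson intervals for shares, and intervals from order statistics for medians), and they treat neighbouring peaks as independent, which they need not be. Fold is the fold enrichment that MACS gave to the called peak, a linear ratio over its background.

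All 353 peaks were intergenic, and for all of them Rras2 was the gene with the nearest start site. They covered 346 kb, 17.6% of the 1969 kb between the first start and the last end. The repeats differed sharply between both megabases. Satellite repeats were named for 50 of the 214 peaks of the first megabase (23.4%, 18.2 to 29.5) and for 102 of the 139 peaks of the second (73.4%, 65.5 to 80.03), against 2.82% of the whole list. The median fold was 17.6 (16.7 to 18.5) in the first megabase and 44.4 (33.3 to 80.6) in the second, a ratio of 2.53 or a difference of 1.34 on the log2 scale. The whole list had a median fold of 25.0, so the first megabase lay below it and the second above it.

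**Figure D1:**
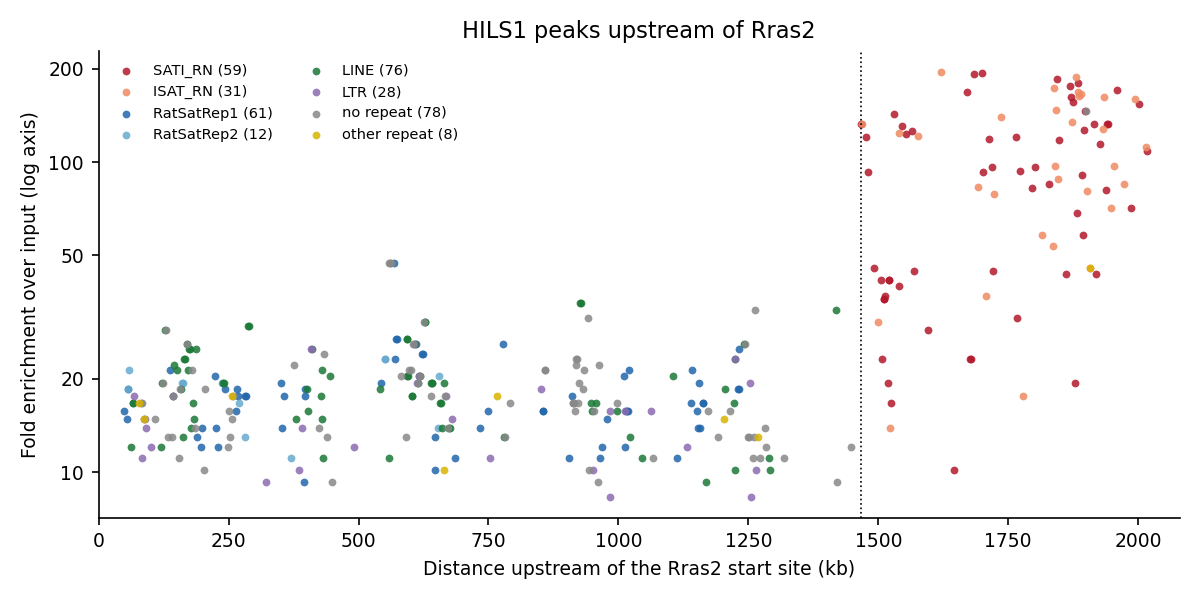
Fold enrichment of each of the 353 peaks (log axis) against its distance upstream of the Rras2 start site in kb, coloured by repeat. Folds stay at or below 47.2 until 1467 kb, where the SATI_RN and ISAT_RN peaks begin and folds reach 195.

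The change did not fall on the megabase mark. The first 47 peaks of the second megabase lay between chr1:187023118 and chr1:187425800. They had most of the kinds of repeats of the first megabase, and folds that were, if anything, lower. RatSatRep2, at 5.61% of the first megabase, was absent, and L1_Rat3 or L1_Rat4 made up 2.13% against 9.35%. The 47 peaks held 12 RatSatRep1 peaks, 10 LINE-1 peaks, 6 LTR peaks and 16 peaks with no repeat. Their median fold was 13.9 (13.0 to 16.7), 0.34 below the first megabase on the log2 scale, and none exceeded 33.3. Folds under 16 were given to 61.7% of them (47.4 to 74.2) and to 38.3% of the first megabase (32.1 to 44.98). After a gap of 17993 bp the first SATI_RN peak followed, at chr1:187443793-187447530. From there to the end of the region, SATI_RN or ISAT_RN was named for 90 of 92 peaks (97.8%, 92.4 to 99.4). The median fold of these 92 peaks was 96.3 (82.4 to 120), 5.78 times the median of 16.7 over the 261 peaks before them, a difference of 2.53 on the log2 scale. These last 552 kb are called the satellite stretch here, a border drawn after the data had been seen.

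The fold ranges before and within the stretch overlapped, but most peaks of the stretch lay above any before it. Before the satellite stretch the folds ran from 8.33 to 47.2, and within it from 10.2 to 195. The lower quartile within the stretch, 44.4, lay just under the highest fold before it. Folds of at least 50 were found for 65 peaks of the region (18.4%, 14.7 to 22.8), all in the stretch, where 1.96% of the whole list reached that fold. Folds of at least 100 were found for 43 peaks (12.2%, 9.17 to 16.01), again all in the stretch, against 0.458% of the whole list. The count of 0 among the 214 peaks of the first megabase allows a share of up to 1.40%, taken as 3 counts of 214, and the upper Wilson bound is 1.76%. The 353 peaks are a small part of the list, but they held 28.7% of its 150 peaks with a fold of at least 100 and 46.2% of its 39 peaks with a fold of at least 150. Since the same signal chose the peaks, these shares only describe where the highest folds lay.

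**Figure D2:**
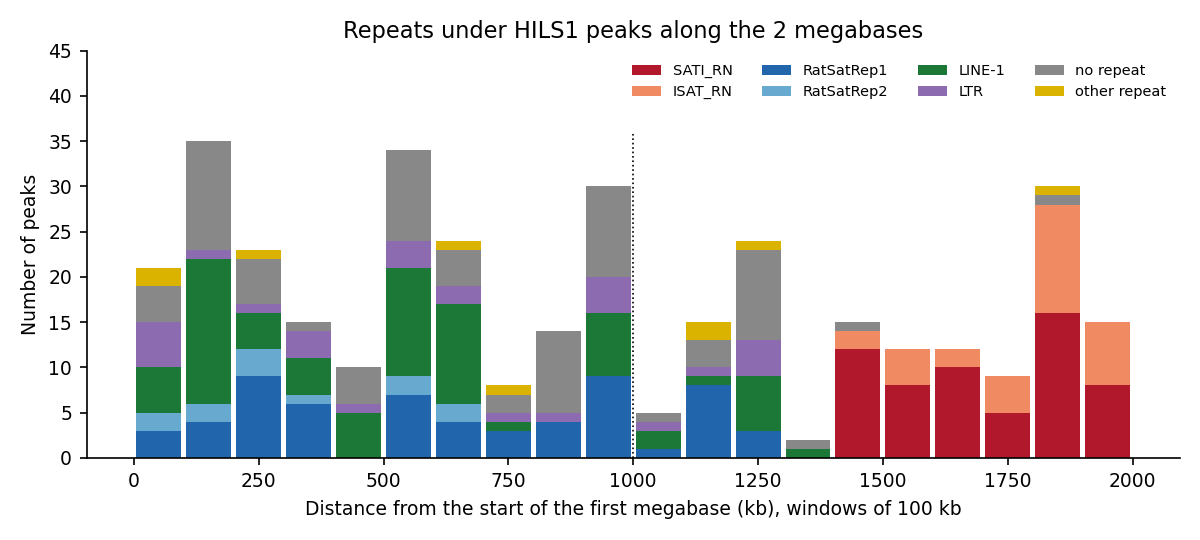
Number of peaks in each window of 100 kb from the start of the region, stacked by repeat, with the megabase mark as a dotted line. RatSatRep1, LINE-1 and repeat-free peaks fill the windows up to 1400 kb, and SATI_RN and ISAT_RN fill those after it.

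The first megabase was a mixture of repeats. RatSatRep1, a satellite family of the rat, was the commonest single name with 49 peaks (22.9%, 17.8 to 29.0, against 1.12% of the whole list). LINE-1 elements, the main family of self-copying retrotransposons in mammals, had more peaks as a whole, 65, spread over many subclasses (30.4%, 24.6 to 36.8). A further 61 peaks (28.5%, 22.9 to 34.9) carried no repeat name, and 22 lay in LTR elements, the remains of endogenous retroviruses. RatSatRep2 was named for 12 peaks, all between chr1:186034855 and chr1:186634212; the list gives this repeat the class Unknown, so it is not counted among the satellites. Altogether 38 repeat families were named in the first megabase and 20 in the second.

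LINE-1 made up 75 peaks of the region (21.2%, 17.3 to 25.8), while it made up 77.6% of the whole list. The difference lay in the subclasses. L1_Rn and L1_Rat1, which together were named for 60.7% of all listed peaks, were named for only 7 peaks here (1.98%, 0.964 to 4.04). The Lx group, an older branch of rodent LINE-1, was named for 32 peaks (9.07%, against 2.19% of the list), and L1_Rat3 or L1_Rat4 for 21 (5.95%, against 1.85%). The most frequent subclasses were L1_Rat3 with 15 peaks and Lx4B with 12, and L1_Rat4, L1_Rn, Lx and Lx2B had 6 each.

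The 28 LTR peaks (7.93%, 5.54 to 11.2, against 4.40% of the list) belonged to 18 families, and 22 of them were of the ERVK type. Across the region, 40 families had only 1 to 4 peaks and together held 61 peaks. One of these was BC1_Rn, named after the brain cytoplasmic RNA of rodents, with a fold of 16.7 at chr1:186055268-186057779.

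Folds outside SATI_RN and ISAT_RN were low and much alike between the larger groups of repeats. The median fold was 16.7 for the 61 RatSatRep1 peaks, 16.7 for the 78 repeat-free peaks, 19.4 for the 12 RatSatRep2 peaks, 19.4 for the 75 LINE-1 peaks and 14.8 for the 28 LTR peaks. The LINE-1 subclasses with at least 5 peaks had medians between 16.2 for Lx2B and 20.8 for L1_Rat4. Elsewhere in the list the same names had similar medians in most cases: 14.8 for RatSatRep1, 16.7 for repeat-free peaks and 15.7 for LTR elements. The medians elsewhere were higher for RatSatRep2, at 23.2, and for LINE-1 as a whole, at 26.9 (19.4 here for both). Among the LINE-1 subclasses with at least 5 peaks L1_Rn stood out, with a median fold of 17.1 over 6 peaks here and 30.6 over 12186 peaks elsewhere. RatSatRep1 itself did not differ much between the megabases, at 15.7 over 49 peaks and 16.7 over 12. Families with 1 to 4 peaks varied more. Their medians ran from 8.33 for RMER19C (1 peak) to 35.2 for L1VL4a (3 peaks) and 45.4 for ID_Rn1 (1 peak, in the stretch). L1VL4a had a median of 15.7 over 55 peaks elsewhere.

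SATI_RN, the name of rat satellite I, and ISAT_RN, another satellite family, stood apart. The median fold was 92.6 over the 59 SATI_RN peaks, which ranged from 10.2 to 194, and 112 over the 31 ISAT_RN peaks, which ranged from 13.9 to 195. The middle part of both ranges overlapped, from 41.7 to 132 between the quartiles of SATI_RN and from 75.0 to 153 between those of ISAT_RN. Folds of at least 100 were given to 26 SATI_RN peaks, 16 ISAT_RN peaks and 1 repeat-free peak. Some of these are segments of the same called peak and share its fold, and the repeat-free peak shared its call with a SATI_RN segment. Outside the region the same repeats had lower medians, 33.3 over 224 SATI_RN peaks and 44.4 over 58 ISAT_RN peaks. The highest folds elsewhere were 205 for SATI_RN and 180 for ISAT_RN, against 194 and 195 here. The top of the range here was thus reached in other places for SATI_RN, but not for ISAT_RN. The region held 20.8% of all SATI_RN peaks in the list and 34.8% of all ISAT_RN peaks.

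**Figure D3:**
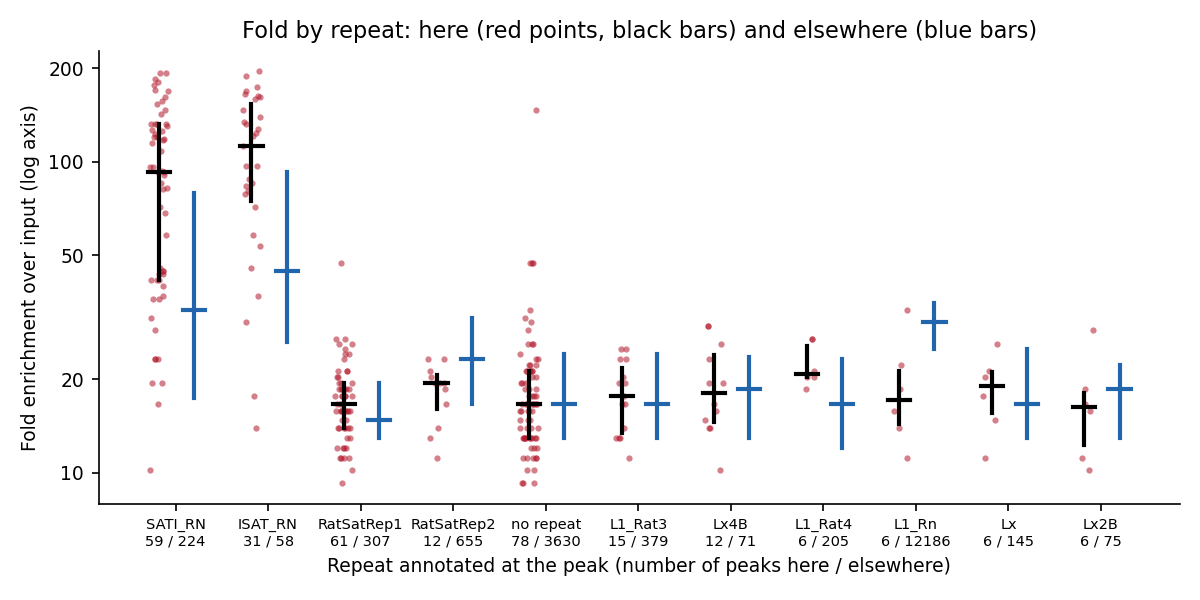
Fold enrichment (log axis) of the peaks in the region, by repeat, with points for single peaks, black bars for the median and quartiles here, and blue bars for those of the same repeat elsewhere in the list. SATI_RN and ISAT_RN peaks lie mostly above the other groups, with medians of 92.6 and 112 here against 33.3 and 44.4 elsewhere.

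The 5 highest folds in the region ranked 2, 3, 4, 5 and 7 in the whole list. An ISAT_RN peak of 1630 bp at chr1:187598318-187599948 had a fold of 195. SATI_RN peaks at chr1:187677269-187678393 and chr1:187661336-187664837 had folds of 194 and 193, and the latter was 3501 bp long. An ISAT_RN peak at chr1:187858161-187858917 followed with 189, and a SATI_RN peak at chr1:187822197-187822816, with 185. Both families were thus found among the top folds, in peaks short and long.

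Some satellite peaks of the stretch were weak. The SATI_RN peak at chr1:187623923-187624517 had a fold of 10.2, and the ISAT_RN peak at chr1:187500429-187501027 had 13.9. Only 2 peaks of the stretch did not carry either name. A repeat-free peak of 2449 bp at chr1:187876690-187879139 had a fold of 146, and a peak in ID_Rn1, a short element of the SINE class, had a fold of 45.4 at chr1:187885443-187886053. Both were segments of called peaks that also held a satellite segment, SATI_RN for the former and ISAT_RN for the latter. The fold belongs to the whole called peak, not to the segment alone.

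Before the stretch, the highest fold was 47.2. It was shared by 4 segments of a single called peak between chr1:186536865 and chr1:186547898, of which 3 had no repeat and 1 lay in RatSatRep1. At the other end, folds of 8.33 were given to an RNERVK9-int peak at chr1:186962175-186962723 and an RMER19C peak at chr1:187233759-187234215. Folds of 9.26 were given to an RNLTR4d_I peak at chr1:186299915, a RatSatRep1 peak at chr1:186373260 and a repeat-free peak at chr1:186427549, among others. All peaks with these lowest folds lay before the stretch.

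Along the region the median fold rose at the border rather than gradually before it. In windows of 100 kb, the medians stayed between 11.1 and 21.3 in the first 14 windows, the last of which held only 2 peaks. The window from 187.4 Mb, which holds the border, had a median of 41.7 over 15 peaks. It held 12 SATI_RN peaks, 2 ISAT_RN peaks and 1 repeat-free peak, so nearly all its peaks lay in the stretch. The 5 windows after it had medians of 122, 88.0, 82.4, 130 and 115, with no steady direction. The number of peaks per window varied widely before the border, from 2 to 35, and from 9 to 30 in the windows after it. The densest window of the stretch, from 187.8 Mb, held 30 peaks, among them 16 SATI_RN and 12 ISAT_RN, and 17 of the 30 had a fold of at least 100.

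**Figure D4:**
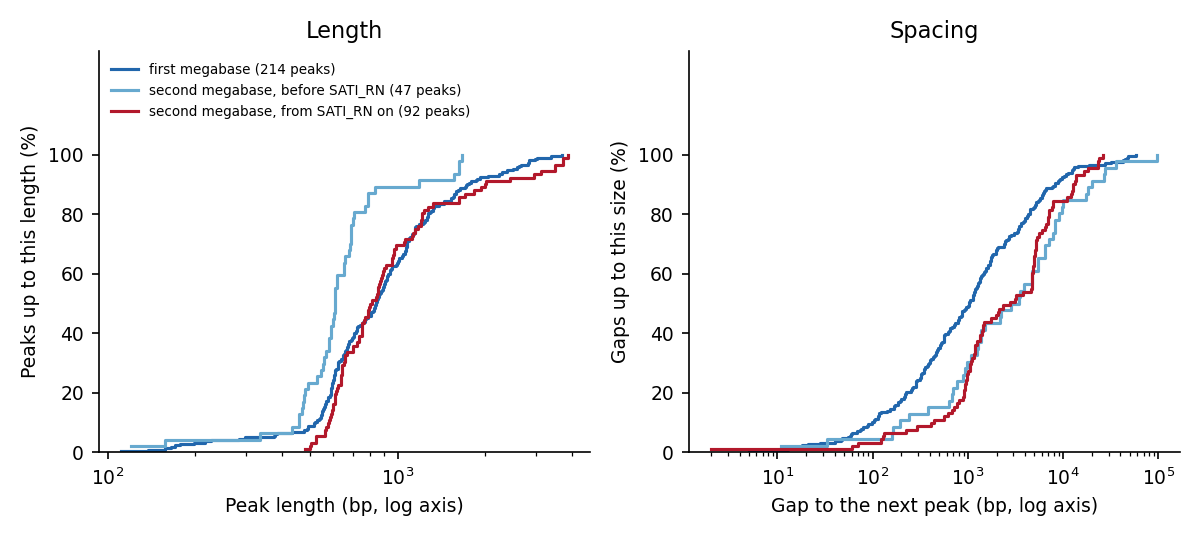
Cumulative share of peaks by length (left) and of gaps to the next peak by size (right), both on log axes, for the 214 peaks of the first megabase, the 47 peaks of the second before SATI_RN and the 92 peaks after. The 47 peaks are the shortest, with a median of 608 bp, and gaps are smallest in the first megabase, with a median of 1029 bp.

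Peak length did not follow the fold from the first to the second megabase. The median length was 844.5 bp (754 to 903) in the first and 704 bp (655 to 789) in the second, and the whole list had 776 bp. The shorter peaks of the second megabase were the 47 before SATI_RN, with a median of 608 bp (579 to 659) and no peak over 1672 bp. Within the satellite stretch the median was 810.5 bp (752 to 892), and the interval overlapped that of the first megabase. SATI_RN peaks had a median of 879 bp and ran from 502 to 3860 bp, while ISAT_RN peaks had a median of 703 bp and none exceeded 1630 bp.

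The 3 longest peaks were all SATI_RN, at 3860 bp (chr1:187916728), 3737 bp (chr1:187443793, the first of the stretch) and 3721 bp (chr1:187935227), with folds of 132, 132 and 170. The 3 shortest were an Lx2B peak of 111 bp at chr1:186536680, an Lx4B peak of 120 bp at chr1:187202110 and a simple repeat of 138 bp at chr1:186235402, with folds of 11.1, 10.2 and 17.6. Long peaks of low fold also existed, such as a repeat-free peak of 3704 bp at chr1:186410392 with a fold of 24.1. Across peaks, which are not independent replicates, Spearman's rho between fold and length was 0.43 over the 261 peaks before the stretch and 0.39 over the 92 peaks in it. The authors kept only regions of 100 to 4000 bp, so longer ones were not analysed here.

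Spacing was wider in the second megabase. The gap from the end of a peak to the start of the next had a median of 1029 bp (726 to 1316) in the first megabase and 3003 bp (1453 to 4741) in the second. Gaps under 1 kb made up 49.3% of 213 gaps in the first and 27.5% of 138 in the second. The peaks covered 21.9% of the first megabase's span and 13.7% of the second's. Within the second, coverage was 7.94% before SATI_RN and 18.3% in the satellite stretch. The largest gap of the region, 97812 bp, lay from chr1:187298093 to chr1:187395905, before the stretch, and no gap within the stretch exceeded 26245 bp.

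Part of the close spacing of the first megabase came from called peaks that the list holds in several segments. The 214 segments there belonged to 162 called peaks, of which 39 had more than 1 segment, and the 92 segments of the stretch belonged to 85 called peaks, of which 7 had more than 1. With only the longest segment of each called peak, the median gap was 2117 bp in the first megabase and 4218 bp in the second, so the second stayed the wider. The bases of dropped segments count as gap in these values, and more segments were dropped in the first megabase. Segments of a called peak share its fold.

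**Figure D5:**
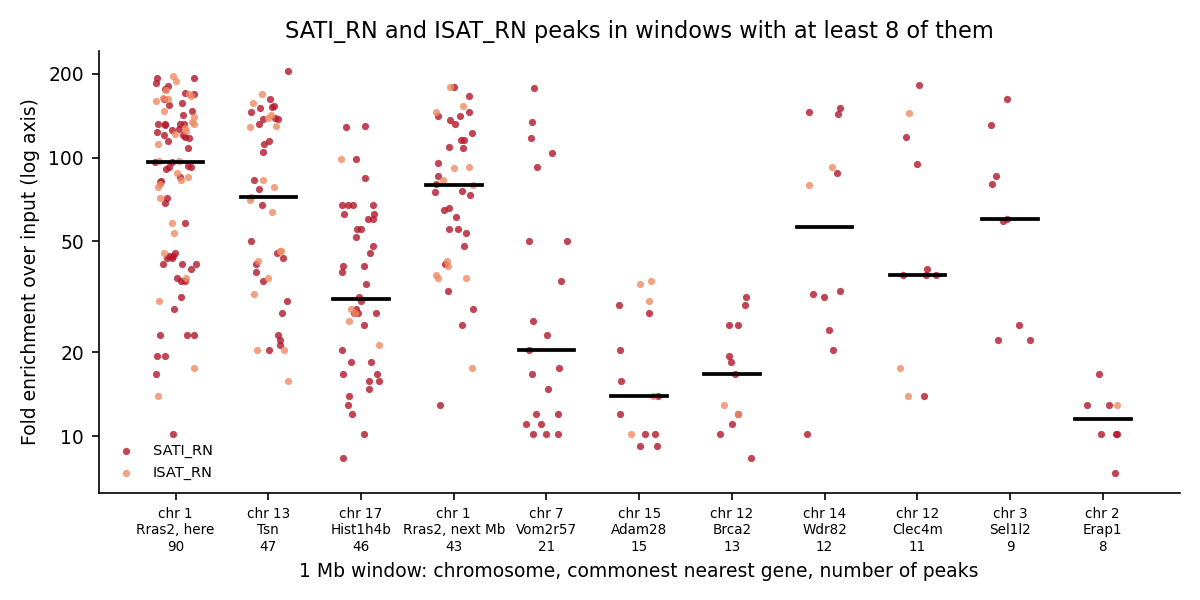
Fold enrichment (log axis) of SATI_RN and ISAT_RN peaks in each of the 11 windows of 1 Mb that hold at least 8 of them, with a point for each peak, a bar for the median and the number of peaks under each window. The window from 187 Mb of chromosome 1 has the most such peaks, 90, and the highest median, 96.3.

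Gap sizes in the satellite stretch were uneven. Of its 91 gaps, 30 (33.0%) were between 0.5 and 1.5 kb and 17 (18.7%) between 4.5 and 5.5 kb, while none were between 8 and 11 kb, and 8 (8.79%) lay between 11 and 14 kb. In the first megabase, 26.6% of the gaps under 30 kb were of 0.5 to 1.5 kb and 3.86% of 4.5 to 5.5 kb. Elsewhere in the list, gaps were taken from each SATI_RN or ISAT_RN peak to the next, skipping any other peak between them. The gaps of the stretch and the first megabase run between consecutive peaks of any kind, so the measures differ. Of the 221 gaps elsewhere under 30 kb, 13.6% were of 0.5 to 1.5 kb, 12.2% of 4.5 to 5.5 kb and 4.07% of 8 to 11 kb. The share of 11 to 14 kb was 9.05% there, close to that of the stretch. These size classes were chosen after the gaps had been seen. Whether unfilled gaps of the rn5 assembly lie between the peaks was not tested, and the gap and coverage values count any such bases.

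SATI_RN and ISAT_RN were interspersed rather than in separate blocks. Of 87 pairs of direct neighbours, 43 joined a peak of each family, 36 joined SATI_RN peaks and 8 joined ISAT_RN peaks. The longest run was 8 peaks for SATI_RN and 4 for ISAT_RN. The median gap was 1900 bp between SATI_RN neighbours, 4974 bp between the families and 1341 bp between ISAT_RN neighbours. A single called peak of the stretch held segments of both.

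Other windows of 1 Mb held fewer peaks of these satellites. Of 372 SATI_RN or ISAT_RN peaks in the list, 90 (24.2%) lay in the stretch, and 10 other windows of 1 Mb held at least 8. The nearest was the next megabase of chromosome 1, into which the same cluster ran on, with 43 such peaks and a median fold of 79.6 (55.6 to 108). On other chromosomes the most were 47 peaks, on chromosome 13 from 38 Mb, mostly nearest to Tsn, with a median of 72.2 (45.4 to 115). Chromosome 17 had 46 from 59 Mb, mostly nearest to Hist1h4b, with a median of 31.0 (25.9 to 51.9). The intervals of the first pair overlapped that of the stretch (82.4 to 120), and that of chromosome 17 did not. In the other 7 windows medians ran from 11.6 to 60.2 over 8 to 21 peaks. Among these, wide intervals also overlapped that of the stretch on chromosome 14 from 48 Mb (24.1 to 144, 12 peaks) and chromosome 12 from 5 Mb (13.9 to 144, 11 peaks). The same held on chromosome 3 from 140 Mb (22.2 to 131, 9 peaks), and the remaining intervals lay below that of the stretch. A high fold was therefore not shared by every cluster of the same repeats.

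Rras2 lay close to the first peaks only. Its start site, as implied by the listed distances, was at chr1:185978450 or the next base, and all 353 peaks lay upstream of it, towards higher coordinates. The nearest peak lay 48.9 kb away and the farthest 2017 kb, and the median distance was 911 kb. It was 551 kb in the first megabase and 1569 kb in the second, and 17 peaks lay within 100 kb. The first SATI_RN peak lay 1467 kb upstream. In the region 147 peaks (41.6%) were more than 1 Mb from a start site, against 10.7% of the whole list, whose median distance was 199 kb. The name Rras2 thus says which annotated start site is nearest, at distances well beyond a promoter.

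The cluster did not end at the upper limit of the region. Just inside the lower limit lay a RatSatRep1 peak at chr1:186026260-186028491 with a fold of 15.7, and the last peak before the limit was an L1_Rat1 peak at chr1:185858243-185858943 with a fold of 36.1, in intron 6 of 15 of Spon1, which encodes an extracellular matrix protein. It lay 119.9 kb from the Rras2 start site on the gene's side. The last peak inside was a SATI_RN peak at chr1:187994533-187995380 with a fold of 108, and the first after the limit, at chr1:188007168-188008180, was also SATI_RN, with a fold of 75.0. The megabase before the region held 22 peaks and the one after it 75. Of 392 peaks nearest to Rras2, 353 lay in the region, 34 after it and 5 before it. Beyond them, from chr1:188341442, peaks were assigned to Copb1, which encodes a subunit of the coatomer coat of transport vesicles and was named after its values had been seen.

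Scores and false discovery rates added little order to the highest folds. The score, which rises with the negative log10 of the MACS p-value, was at its common upper value of 3100 or above for 41 peaks of the region (11.6%, 8.68 to 15.4), against 9.77% of the whole list, of which 37 lay in the stretch. All 40 peaks at exactly 3100 carried a false discovery rate of 9.45%. The 43 peaks with a fold of at least 100 had rates from 3.94 to 9.45%. The median rate was 7.56% in the first megabase and 8.58% in the second, and 13 peaks exceeded 20%, none of them in the stretch.

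The called peaks of the stretch were listed more completely than those before it. Called peaks carry running numbers along the chromosome, and the list skips many of them. In the satellite stretch 85 of 90 numbers were present (94.4%, 87.6 to 97.6), while 204 of 398 were present before it (51.3%, 46.4 to 56.1) and 42 of 122 in the part of the second megabase before SATI_RN (34.4%, 26.6 to 43.2). Over the whole list it was 53.0%. A missing number can be a peak that the other replicate lacked or one outside the length limits, and the list does not tell these apart.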

How the data were processed

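HILS1 ChIP-seq was done in 2 replicates with 1 Input library. According to the study's methods, the authors used only reads that, after trimming, had a unique Bowtie2 alignment in rn5, dropped PCR duplicates and ran MACS on each replicate against Input. Regions shared by both replicates and 100 to 4000 bp long were kept (bedtools) and annotated with HOMER. Copies of a repeat that reads cannot tell apart gain no uniquely aligned reads, so repeats can be under-represented. The submitters' processing notes also name FastQC, SAMtools and Trim Galore. The deposited fold enrichment is a linear ratio, the deposited score is the MACS measure of the p-value, and the deposited FDR (false discovery rate) is a percent value. The methods do not say from which replicate these came, and the number of reads was not used here, so depth and replicate spread are unknown.

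From the list, peaks were counted by repeat, window and called peak, with 95% intervals, in Python 3.11.15 with numpy 2.4.6, pandas 2.3.3, scipy 1.17.1 and matplotlib 3.10.9. No test was run, because the peak calls chose the region. The code was tested on simulated lists. Gaps run from the end of a peak to the next start, and limits were applied to starts. Repeats with at least 5 peaks, the 5 highest and lowest folds, the 3 longest and shortest peaks, the peaks at the limits and Rras2 were named by rule. The region, rule and lists were chosen with earlier results of these data known. The border at the first SATI_RN peak and peaks named for other reasons were chosen after the values had been seen. The alternatives tried were longest segments, thresholds on fold, false discovery rate, length and score, shifted borders, weighting by length and repeat-annotated peaks only. Spon1 was named from RefSeq by its transcript. No sequence is shown, because an rn5 genome was not used here.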

Additional observations from a re-analysis of the deposited data

How the results depend on the processing

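The second megabase kept the higher median fold and the higher satellite share under every alternative tried; 67 of 87 values stayed within the interval of the value reported (for numbers of peaks, within 1.5 times) and 20 did not. The order of the median lengths turned with the border at the first SATI_RN peak, to 754 bp before it and 810.5 bp after it; under the other alternatives that gave lengths the first megabase had the longer median. The log2 difference in median fold was 0.45 without peaks at the highest score, 0.84 with the border 0.1 Mb lower, 2.32 with peaks weighted by length and 2.53 with the border at the first SATI_RN peak, an alternative added after the data had been seen. The satellite share of the second megabase was 64.7% without the highest score, 80.2% weighted by length, 82.6% with only FDRs up to 10%, 83.6% over repeat-annotated peaks, 88.9% with a fold of at least 16 and 97.8% from the first SATI_RN peak, which left 92 peaks. The share of the first megabase was 32.7% over repeat-annotated peaks. A fold of at least 16 left 132 peaks in the first megabase, and median lengths were then 950.0 bp and 792 bp. With FDRs up to 10% the first megabase had a median length of 943 bp. Without the highest score the second had 643.5 bp and a median gap of 4769 bp. With only longest segments, and dropped segments counted as gap, the median gap of the first was 2117 bp. No paired analysis was possible because no value is given for each replicate, and leaving out a replicate was not possible for the same reason. Depth is unknown, so no limit of detection can be given.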

Other observations

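In the RefSeq annotation of another rat assembly, GRCr8, 3 entries stand between Rras2 and Copb1: the pseudogenes Rpl27a-ps4 and Rps14-ps6 and the protein-coding entry Rps18l4. They were used as names only, since that build differs from rn5, and whether they lie among these peaks was not tested. A single peak of the region carried the satellite name 91ES8_RN, at chr1:186744457-186745071 of rn5, with a fold of 17.6 and a false discovery rate of 14.7%.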
